A study of Mus musculus with 4 samples.

Results

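Trp53, which encodes the tumour suppressor p53, was measured together with its family members, regulators and direct targets in 2 clonal mouse cell lines. The 38 genes were chosen by name, with earlier results of these data known. Each had exactly 1 of the 23358 gene rows of the count tables, so no member was without a row. By role they comprise 3 genes of the p53 family, 5 regulators and 30 targets. A filter on low counts left 14496 genes for testing, among them 37 of the 38 members, with Trp73 untested.

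Both lines came from the muscle layers of the mouse stomach and are labelled as progenitors of interstitial cells of Cajal, which pace the contractions of the gut. The line 2xSCS70 comes from H-2Kb-tsA58 mice, whose transgene is the thermolabile tsA58 form of SV40 large T antigen, driven by the H-2Kb promoter that interferon induces. Its culture was kept at 39.5 °C, with interferon gamma left out. The line 2xSCS2F10 comes from C57BL/6J mice, and its culture was kept at 37 °C in a neural stem cell medium supplemented with chick embryo extract (5%). Each line is 1 clone with 2 libraries, so clone, strain, transgene, temperature and medium cannot be told apart here. Whether the libraries of a line came from separate cultures is not stated in the labels, so each p-value reflects no more than the spread of these 4 libraries, part or all of which may be technical.

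The libraries held 44737008 to 48971264 counts in genes for 2xSCS70 and 40319972 to 45098902 for 2xSCS2F10. Between replicates, 394 tested genes (2.72%) differed by more than 2-fold in 2xSCS70 and 1791 (12.4%) in 2xSCS2F10. The 4 markers of interstitial cells of Cajal summed to 96.7 and 103 CPM in 2xSCS70, against 178 and 151 CPM in 2xSCS2F10, mostly from the connexin gene Gja1. Among them Kit, a defining marker, had 0 and 1 fragments in 2xSCS70 and 0 in both libraries of 2xSCS2F10. Ano1 stood at 2.29 and 2.55 CPM in 2xSCS70, against 29.8 and 18.4 CPM in 2xSCS2F10. Etv1, at low levels, went the other way, at 0.544 and 0.781 CPM in 2xSCS70, against 0.0514 and 0.367 CPM in 2xSCS2F10. The 4 markers of progenitors of these cells summed to 718 and 679 CPM in 2xSCS70, against 433 and 384 CPM in 2xSCS2F10. Of these, Cd34 and Cd44 lay higher in both 2xSCS70 libraries, Igf1r lay lower and Insr overlapped between the lines. Summed levels of 5 smooth muscle markers were 43.7 and 43.2 CPM in 2xSCS70, against 1768 and 3260 CPM in 2xSCS2F10. Those of 5 mesothelial markers were 89.2 and 79.7 CPM in 2xSCS70, against 2834 and 2815 CPM in 2xSCS2F10, and those of 4 fibroblast markers were 7876 and 6363 CPM in 2xSCS70, against 21980 and 32679 CPM in 2xSCS2F10. Des of the smooth muscle list and Pdgfra of the fibroblast list overlapped between the lines. The differences in these lists coincide with every difference between the lines given below, and their part in those was not tested. In such bulk samples, fewer cells of a type and less RNA per cell cannot be told apart.

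p53 is a transcription factor that is made continuously and held low mainly by degradation of the protein, through the ubiquitin ligase Mdm2. When DNA damage or other stress releases it from Mdm2, it binds a response element in its targets and raises genes for cell cycle arrest, cell death and DNA repair, Mdm2 among them. SV40 large T antigen binds p53 and holds it in an inactive complex, and the tsA58 form of the antigen is unstable at the higher temperature. Neither p53 protein nor the transgene was measured here.

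The response element was looked for in the promoters, since it is the sequence through which p53 reaches its targets. RefSeq promoters of GRCm38.p6, from 250 bases before to 50 after an annotated start, were given for 28 of the 38 members. The p53 consensus response element of 20 bases was searched on both strands, with the core CNNGNNNNNNCNNG kept and up to 3 mismatches elsewhere. It was present in 7 of those 28 members (25.0%), against 441 of all 27025 genes with a promoter (1.63%). As most members were listed for being p53 targets, a higher share was built into the choice and is no separate result. With at most 1 mismatch the element was present in 2 members, Cdkn1a and Ccng1, and in 22 of all genes (0.0814%). The 250 bases upstream of an annotated start are shown for these 2 targets and for Trp53 itself. They run 5′ to 3′ on the strand of the gene, with the element in capitals. Those of Cdkn1a and Trp53 lie on the plus strand at chr17:29090729-29090978 and chr11:69580109-69580358, and that of Ccng1 on the minus strand at chr11:40755287-40755536.
Cdkn1a: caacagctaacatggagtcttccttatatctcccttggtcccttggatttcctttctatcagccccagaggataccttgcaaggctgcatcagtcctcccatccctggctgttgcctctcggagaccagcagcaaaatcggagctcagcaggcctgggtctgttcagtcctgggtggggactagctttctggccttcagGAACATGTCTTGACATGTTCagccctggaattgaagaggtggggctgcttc
Ccng1: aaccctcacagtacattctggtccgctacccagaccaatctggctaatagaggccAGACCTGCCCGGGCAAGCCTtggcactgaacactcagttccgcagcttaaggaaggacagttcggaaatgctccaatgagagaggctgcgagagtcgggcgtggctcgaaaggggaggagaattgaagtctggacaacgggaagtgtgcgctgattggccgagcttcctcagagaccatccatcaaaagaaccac
Trp53: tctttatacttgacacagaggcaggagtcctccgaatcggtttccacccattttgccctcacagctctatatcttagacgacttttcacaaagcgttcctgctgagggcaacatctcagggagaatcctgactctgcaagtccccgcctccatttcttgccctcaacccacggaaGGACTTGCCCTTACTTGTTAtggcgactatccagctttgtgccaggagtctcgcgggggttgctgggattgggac
The element of Cdkn1a had 1 mismatch, that of Ccng1 1 and that of Trp53 3. At another annotated start of Cdkn1a the best match had 7 mismatches. The other 4 members held an element with 2 mismatches in Trp73 and 3 in Bbc3, Aen and Sesn1, shown because they stand within the window of a family member and of targets that behaved differently below.
Trp73: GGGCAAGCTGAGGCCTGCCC
Bbc3: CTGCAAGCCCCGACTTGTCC
Aen: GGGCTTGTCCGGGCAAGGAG
Sesn1: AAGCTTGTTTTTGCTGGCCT
Trp73, Bbc3 and Sesn1 also have other annotated starts, whose best matches had 7 to 9 mismatches. A match describes the letters of its window only.

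Trp53 mRNA was far higher in 2xSCS70. Levels are given in CPM, counts relative to library size, scaled for library composition by the TMM method, in the order of replicates 1 and 2. Trp53, on chromosome 11 from 69580359 to 69591873 of mm10, stood at 195 and 173 CPM in 2xSCS70, against 25.6 and 23.2 CPM in 2xSCS2F10. Both 2xSCS70 libraries lay far above both 2xSCS2F10 libraries, and replicates of a line lay close together. It was 7.55-fold higher in 2xSCS70, a log2 difference of 2.92 (SE 0.14, n = 2 libraries per line), with an adjusted p of 0.000515 in edgeR's quasi-likelihood test over all tested genes. It was 2.93 within replicate number 1 and 2.90 within number 2. Of the 14496 tested genes, 565 (3.90%) had a larger difference towards 2xSCS70. A processed pseudogene of Trp53 is annotated on chromosome 17 without a row in the tables, and reads from it could not be told from those of the gene.

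The 2 relatives of Trp53 were nearly silent. Trp63, which acts in stratified epithelia, was measured at 0.145 and 0.205 CPM in 2xSCS70 and at 0.308 and 0.21 CPM in 2xSCS2F10. Trp73, with functions in neurons and ciliated cells, had 0 fragments in both 2xSCS70 libraries, against 2 fragments in all in 2xSCS2F10. A floor of 3 fragments equals 0.109 and 0.123 CPM in the libraries of 2xSCS70 and 0.154 and 0.157 CPM in those of 2xSCS2F10, so that both genes were at or near the limit of detection. Trp63 did not pass the test (log2 difference −0.57, SE 0.53, edgeR adjusted p = 0.426).

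**Figure D1:**
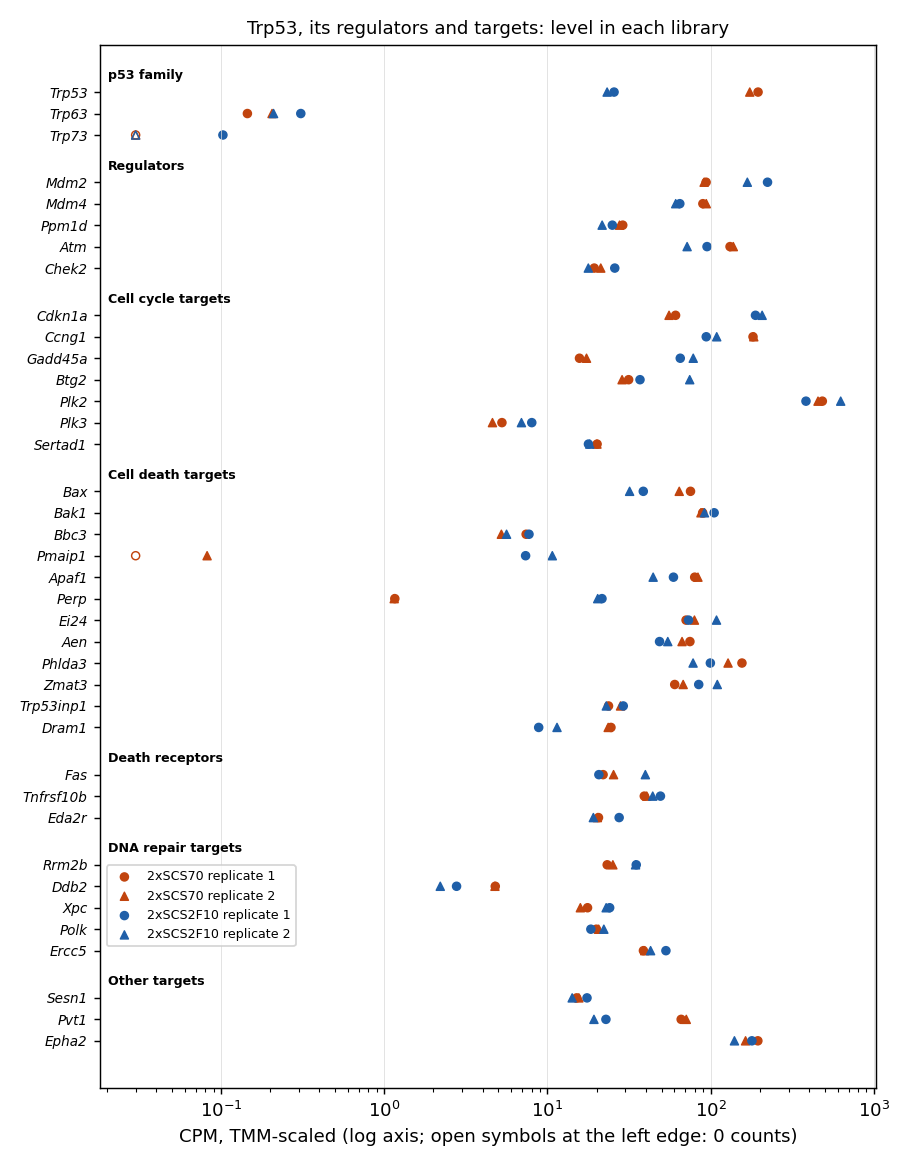
Level of each of the 38 genes in the 4 libraries, in TMM-scaled CPM on a log axis, grouped by role, with 1 point per library (orange, 2xSCS70, blue, 2xSCS2F10) and open symbols at the left edge for 0 counts. Trp53 lies at 195 and 173 CPM in 2xSCS70, against 25.6 and 23.2 CPM in 2xSCS2F10, and the widest gaps the other way are those of Perp and Pmaip1.

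Over the 37 tested members, 11 were higher and 8 were lower in 2xSCS70, and 18 did not pass the test. Over all tested genes 40.6% passed, 18.8% higher and 21.8% lower, so a called member is not unusual by itself in a comparison with so many differences. Among the 30 targets alone 8 were higher, 7 were lower and 15 did not pass. The median log2 difference of the targets was −0.13, against 0.02 for all tested genes, but it was 0.17 without scaling factors and 0.12 and 0.10 on log2(RPKM + 0.1) and log2(RPKM + 1). The libraries of the lines did not overlap for 13 members with 2xSCS70 above and 14 with it below, against 39.9% and 37.5% of all tested genes (77.4% in either direction), and overlapped for 10. Leaving out 2xSCS70 replicate 1 or 2 left 6 members called (2 higher and 4 lower), while leaving out 2xSCS2F10 replicate 1 gave 26 and its replicate 2 gave 27. The share of all genes called moved in the same way, to 5.12% and 5.34% without a 2xSCS70 library and to 64.4% and 60.5% without a 2xSCS2F10 library. With 1 library left in a line, the spread came from the other line alone, so such calls do not reflect both lines. The 6 members whose calls held in every alternative run were Trp53 and Pvt1, both higher, and Cdkn1a, Gadd45a, Perp and Pmaip1, all lower. Pmaip1 left the test under a filter at a mean of 5 CPM.

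**Figure D2:**
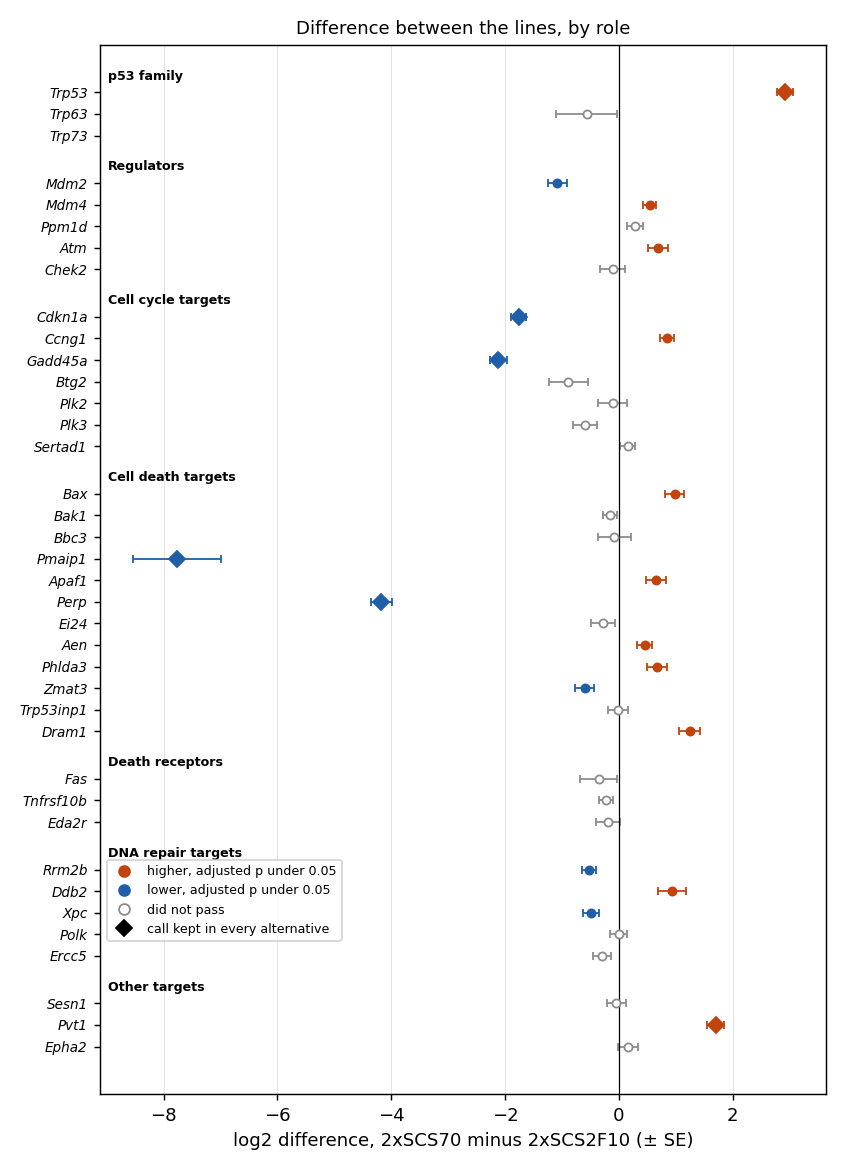
Log2 difference, 2xSCS70 minus 2xSCS2F10, with its SE for each tested gene by role, from edgeR's quasi-likelihood test on 2 libraries per line (filled, adjusted p under 0.05, diamonds, call kept in every alternative run). Trp53 stands at 2.92 on the right, while Cdkn1a, Gadd45a, Perp and Pmaip1 stand between −1.76 and −7.76 on the left, the value of Pmaip1 resting on 2 fragments in 2xSCS70.

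Of the 5 regulators, 2 were higher, 1 was lower and 2 did not pass, beside 18.8% higher and 21.8% lower among all tested genes. Mdm2, the ubiquitin ligase that degrades p53 and is itself a target of it, lies on chromosome 10 from 117688905 to 117710716. It stood at 93.7 and 91.2 CPM in 2xSCS70, against 223 and 168 CPM in 2xSCS2F10. The lines did not overlap, with the 2xSCS2F10 libraries farther apart from each other than those of 2xSCS70. Mdm2 was 2.11-fold lower in 2xSCS70 (log2 difference −1.08, SE 0.17, edgeR adjusted p = 0.00894), the opposite direction to Trp53 itself. The difference was −1.25 within replicate number 1 and −0.88 within number 2. Mdm4, the relative of Mdm2 that binds p53 and blocks its activation domain, stood at 89.5 and 94.0 CPM in 2xSCS70, against 64.7 and 61.0 CPM in 2xSCS2F10. It was 1.46-fold higher (log2 difference 0.55, SE 0.11, edgeR adjusted p = 0.0196). Atm, the kinase that phosphorylates p53 after double-strand breaks, stood at 131 and 138 CPM in 2xSCS70, against 94.9 and 71.7 CPM in 2xSCS2F10, and was 1.61-fold higher (edgeR adjusted p = 0.0292). These 2 genes were clear of overlap, by small margins beside that of Trp53.

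Ppm1d, a phosphatase that switches the pathway off again, stood at 28.9 and 27.6 CPM in 2xSCS70 and 25.0 and 21.6 CPM in 2xSCS2F10 and did not pass (log2 difference 0.28, edgeR adjusted p = 0.17). Chek2, a checkpoint kinase downstream of Atm, stood at 19.3 and 21.2 CPM in 2xSCS70, between the 25.8 and 17.8 CPM of 2xSCS2F10 (log2 difference −0.11, edgeR adjusted p = 0.716). Without 2xSCS70 replicate 1 or without its replicate 2, the calls of Mdm2, Mdm4 and Atm were lost, with edgeR adjusted p of 0.114 to 0.206. That of Mdm2 was also lost on log2(RPKM + 1). Ppm1d stood at a log2 difference of 0.37 without 2xSCS2F10 replicate 1. Chek2 stood at −0.36 without 2xSCS2F10 replicate 2 and turned to 0.17 without its replicate 1.

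Among the 7 cell cycle targets, Cdkn1a and Gadd45a were lower in 2xSCS70, Ccng1 was higher and 4 did not pass. The shares over all tested genes were 21.8% lower and 18.8% higher. Cdkn1a, the cyclin-dependent kinase inhibitor p21 and the best known arrest gene of p53, lies on chromosome 17 from 29090986 to 29100722. It stood at 60.9 and 55.6 CPM in 2xSCS70, against 188 and 207 CPM in 2xSCS2F10. Every 2xSCS70 library lay well below every 2xSCS2F10 library. Cdkn1a was 3.39-fold lower (log2 difference −1.76, SE 0.13, edgeR adjusted p = 0.00121), and it is the target whose promoter above holds an element with 1 mismatch. Gadd45a, a growth arrest gene induced by DNA damage, lies on chromosome 6 from 67035096 to 67037407. It stood at 15.7 and 17.3 CPM in 2xSCS70, against 65.1 and 78.1 CPM in 2xSCS2F10. It was 4.33-fold lower (log2 difference −2.12, SE 0.16, edgeR adjusted p = 0.00133). Of the exon bases of Gadd45a, 337 (19.1%) overlap a gene on the other strand, E230016M11Rik, whose level was 0.98 and 1.32 CPM in 2xSCS70 and 2.05 and 2.83 CPM in 2xSCS2F10, far below that of Gadd45a.

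Ccng1, which encodes cyclin G1 and whose promoter holds the other element with 1 mismatch, went the other way. It stood at 182 and 184 CPM in 2xSCS70, against 93.9 and 109 CPM in 2xSCS2F10, and was 1.80-fold higher (log2 difference 0.85, SE 0.13, edgeR adjusted p = 0.00777). The call was lost without 2xSCS70 replicate 1 or 2 (edgeR adjusted p of 0.109 and 0.112). Both targets with a near-perfect element thus passed the test, in opposite directions.

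None of the other 4 cell cycle targets passed with all libraries. Btg2, an antiproliferative gene, stood at 31.4 and 28.6 CPM in 2xSCS70, against 36.9 and 74.4 CPM in 2xSCS2F10. Plk2, a polo-like kinase, stood at 483 and 454 CPM in 2xSCS70, inside the range of 383 and 626 CPM in 2xSCS2F10. Plk3, its relative, stood at 5.26 and 4.60 CPM in 2xSCS70 and 8.01 and 6.93 CPM in 2xSCS2F10. In both Btg2 and Plk2, replicate 2 of 2xSCS2F10 was the highest of the 4 libraries. The log2 differences were −0.89 for Btg2 (edgeR adjusted p = 0.0951), −0.11 for Plk2 (0.755) and −0.60 for Plk3 (0.0768), and Btg2 passed as lower in DESeq2. Without 2xSCS2F10 replicate 1 all 3 stood lower, at −1.32, −0.43 and −0.50 in that order. Without its replicate 2, Btg2 and Plk3 stood at −0.30 and −0.71, while Plk2 stood at 0.28. The direction of Plk2 thus rested on which library was kept. Sertad1, a CDK4-binding protein, stood at 20.1 and 20.1 CPM in 2xSCS70 and 17.8 and 18.2 CPM in 2xSCS2F10 and did not pass (log2 difference 0.16, edgeR adjusted p = 0.366).

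The 12 cell death targets divided into 5 higher, 3 lower and 4 that did not pass. The shares over all tested genes were 18.8% higher and 21.8% lower, and so short a list cannot be set apart from them. The largest differences among these targets were those of Perp and Pmaip1, both lower in 2xSCS70. Perp, a membrane protein of desmosomes that p53 and p63 induce, lies on chromosome 10 from 18845071 to 18857072. It stood at 1.16 and 1.15 CPM in 2xSCS70, against 21.6 and 20.3 CPM in 2xSCS2F10. The replicates of each line were almost equal and the lines far apart. Perp was 18.1-fold lower (log2 difference −4.18, SE 0.19, edgeR adjusted p = 0.00049). Perp is expressed in epithelial cells, and it moved in the direction of the mesothelial markers given above, whose part in it was not tested.

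Pmaip1, which encodes the BH3-only protein Noxa, had 0 and 2 fragments in the 2xSCS70 libraries, or 0 and 0.0822 CPM, against 7.35 and 10.7 CPM in 2xSCS2F10. In fragments this is 2 in 2xSCS70, against 347 in 2xSCS2F10, a level 234-fold lower in 2xSCS70 with an exact 95% interval of 64.2 to 1938 that covers counting error only. Pmaip1 was thus close to undetected in the line with the higher Trp53. Both fragments came from 2xSCS70 replicate 2. Without that library the count in 2xSCS70 was 0 and the level was at least 82.8-fold lower, taken at a floor of 3 fragments. Without replicate 1 it was 110-fold lower (interval 30.1 to 909). The edgeR adjusted p was 0.00276.

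Of the other genes of the mitochondrial route to cell death, 2 were higher. Bax, a pore-forming protein of the outer mitochondrial membrane, stood at 75.2 and 64.2 CPM in 2xSCS70, against 38.6 and 31.9 CPM in 2xSCS2F10, and was 1.98-fold higher (log2 difference 0.98, SE 0.16, edgeR adjusted p = 0.0101). Apaf1, the scaffold of the apoptosome, stood at 79.8 and 83.5 CPM in 2xSCS70, against 59.1 and 44.4 CPM in 2xSCS2F10, and was 1.58-fold higher (edgeR adjusted p = 0.0357). The libraries of the lines did not overlap for either gene. Bak1, the other pore-forming protein, stood at 89.3 and 87.1 CPM in 2xSCS70 and 105 and 91.6 CPM in 2xSCS2F10, and did not pass (log2 difference −0.16, edgeR adjusted p = 0.356). Bbc3, which encodes the BH3-only protein Puma, stood at 7.40 and 5.22 CPM in 2xSCS70 and 7.71 and 5.62 CPM in 2xSCS2F10 (log2 difference −0.08, edgeR adjusted p = 0.842). The level of Bbc3 was close to that of Pmaip1 in 2xSCS2F10 when each is taken per length, at 0.285 and 0.229 times the RPKM of Trp53 for Bbc3, and 0.202 and 0.325 times for Pmaip1. In 2xSCS70 Bbc3 was readily counted and Pmaip1 was not.

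Dram1, a lysosomal protein that promotes autophagy, stood at 24.5 and 23.5 CPM in 2xSCS70, against 8.84 and 11.4 CPM in 2xSCS2F10, and was 2.37-fold higher (log2 difference 1.24, SE 0.18, edgeR adjusted p = 0.00749). Phlda3, which restrains Akt at the membrane, stood at 155 and 128 CPM in 2xSCS70, against 99.5 and 78.0 CPM in 2xSCS2F10 (higher by 0.67 on the log2 scale, edgeR adjusted p = 0.0364). These 2 genes were separated between the lines in all 4 libraries. Aen, a nuclease of apoptotic cells, stood at 74.6 and 66.7 CPM in 2xSCS70, against 48.6 and 54.6 CPM in 2xSCS2F10, and was higher by 1.37-fold near the threshold (edgeR adjusted p = 0.0488). Zmat3, an RNA-binding zinc finger protein, stood at 60.2 and 67.8 CPM in 2xSCS70, against 84.5 and 110 CPM in 2xSCS2F10, and was 1.52-fold lower (edgeR adjusted p = 0.0441). Aen and Zmat3 were both near the threshold and did not keep their calls under several other settings. Without either library of 2xSCS70, the calls of Bax, Apaf1, Dram1, Phlda3, Aen and Zmat3 were lost, with edgeR adjusted p of 0.0885 to 0.336.

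Ei24, a protein of the endoplasmic reticulum, and Trp53inp1, a cofactor of p53 in cell death and autophagy, did not pass. Ei24 stood at 70.6 and 79.5 CPM in 2xSCS70 and 73.2 and 109 CPM in 2xSCS2F10 (log2 difference −0.28, edgeR adjusted p = 0.349). Trp53inp1 stood at 23.7 and 28.0 CPM in 2xSCS70 and 29.1 and 22.9 CPM in 2xSCS2F10 (−0.01, edgeR adjusted p = 0.967). The lines overlapped for both. Without 2xSCS2F10 replicate 1, Ei24 stood at −0.55. Without 2xSCS2F10 replicate 2, Bak1 stood at −0.26 and Ei24 at 0.03.

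None of the 3 death receptors passed in edgeR's test, at an adjusted p of 0.207 to 0.49, with 0 at an unadjusted p under 0.05 and 0 in DESeq2. Over all tested genes 40.6% passed in edgeR's test, and 3 genes are too few to set against that share. Fas, the receptor of Fas ligand, stood at 21.9 and 25.4 CPM in 2xSCS70, inside the 20.7 and 39.8 CPM of 2xSCS2F10. Tnfrsf10b, the mouse receptor of TRAIL, stood at 39.2 and 40.6 CPM in 2xSCS70 and 49.2 and 44.1 CPM in 2xSCS2F10. Eda2r, a receptor of ectodysplasin, stood at 20.5 and 20.2 CPM in 2xSCS70 and 27.5 and 19.1 CPM in 2xSCS2F10. Only Tnfrsf10b of these 3 had lines that did not overlap, with 2xSCS70 below, where 77.4% of all tested genes did not overlap. Without 2xSCS2F10 replicate 1, Fas stood at −0.76, and without its replicate 2 it stood at 0.19. Without replicate 2 of 2xSCS2F10, Tnfrsf10b and Eda2r stood at −0.31 and −0.44.

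The 5 DNA repair targets divided into 1 higher, 2 lower and 2 that did not pass, beside 18.8% higher and 21.8% lower among all tested genes. Rrm2b, a subunit of ribonucleotide reductase that supplies nucleotides for repair, stood at 23.2 and 25.2 CPM in 2xSCS70, against 35.0 and 34.6 CPM in 2xSCS2F10 (1.44-fold lower, edgeR adjusted p = 0.0276). Xpc, which recognises DNA damage for nucleotide excision repair, stood at 17.6 and 15.9 CPM in 2xSCS70, against 24.0 and 22.9 CPM in 2xSCS2F10 (1.40-fold lower, edgeR adjusted p = 0.0454). Ddb2, which recognises ultraviolet lesions in the same pathway, stood at 4.79 and 4.77 CPM in 2xSCS70, against 2.77 and 2.20 CPM in 2xSCS2F10 (1.92-fold higher, edgeR adjusted p = 0.036). The damage sensors Xpc and Ddb2 therefore passed in opposite directions, each with lines that did not overlap. Of the exon bases of Ddb2, 652 (23.8%) overlap Acp2 on the other strand, which stood higher, at 45.7 and 49.1 CPM in 2xSCS70 and 47.4 and 55.2 CPM in 2xSCS2F10. The call of Ddb2 is therefore uncertain. With the replicate number as a block, the calls of Rrm2b, Xpc and Ddb2 were lost too. Without either library of 2xSCS70 the calls of Rrm2b, Xpc and Ddb2 were lost, with edgeR adjusted p of 0.206 to 0.341.

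Polk, a translesion DNA polymerase, stood at 19.9 and 20.6 CPM in 2xSCS70 and 18.4 and 22.1 CPM in 2xSCS2F10 (edgeR adjusted p = 0.989). Ercc5, an endonuclease of nucleotide excision repair, stood at 38.7 and 39.4 CPM in 2xSCS70 and 53.2 and 42.8 CPM in 2xSCS2F10 (log2 difference −0.30, edgeR adjusted p = 0.176). Polk overlapped between the lines and Ercc5 did not, and Ercc5 stood at −0.45 without 2xSCS2F10 replicate 2.

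Of the 3 remaining targets, Pvt1 was higher in 2xSCS70. Pvt1 is a long non-coding RNA gene beside Myc, on chromosome 15 from 62037987 to 62250975 of mm10. It stood at 65.9 and 70.9 CPM in 2xSCS70, against 22.8 and 19.3 CPM in 2xSCS2F10, and was 3.25-fold higher (log2 difference 1.70, SE 0.15, edgeR adjusted p = 0.00193). This was the largest difference towards 2xSCS70 among the 30 targets, well below that of Trp53. H2afy3 overlaps Pvt1 over 109 exon bases (1.56%) on the other strand, and stood at 15.6 and 18.3 CPM in 2xSCS70, against 1.23 and 0.892 CPM in 2xSCS2F10. Sesn1, a sestrin that restrains mTORC1, stood at 15.1 and 15.6 CPM in 2xSCS70 and 17.5 and 14.2 CPM in 2xSCS2F10 (log2 difference −0.04, edgeR adjusted p = 0.846). Epha2, an ephrin receptor, stood at 194 and 163 CPM in 2xSCS70 and 179 and 140 CPM in 2xSCS2F10 (0.17, edgeR adjusted p = 0.47). Both of these overlapped between the lines, and Epha2 stood at 0.34 without 2xSCS2F10 replicate 1.

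Setting Trp53 against its targets in each library showed that the summed targets differed far less between the lines than Trp53 did. The 30 targets summed to 1921 and 1841 CPM in 2xSCS70 and to 1826 and 2109 CPM in 2xSCS2F10. The lines overlapped in this sum. In RPKM, which is per length and carries no TMM scaling, the targets summed to 667 and 565 in 2xSCS70, against 559.5 and 536 in 2xSCS2F10, where the lines did not overlap and 2xSCS70 was higher. Divided by the CPM of Trp53, the sum was 9.85 and 10.6 in 2xSCS70, against 71.4 and 90.9 in 2xSCS2F10. On the authors' RPKM, which relates counts to gene length, the ratio was 7.29 and 7.70 in 2xSCS70, against 52.96 and 66.8 in 2xSCS2F10. With 2 libraries against 2, an exact two-sided permutation test cannot go below a p of 0.333, so no test is given. Plk2 alone supplied 25.1% and 24.7% of the summed target CPM in 2xSCS70 and 21.0% and 29.7% in 2xSCS2F10. Cdkn1a supplied 3.17% and 3.02% in 2xSCS70, against 10.3% and 9.79% in 2xSCS2F10.

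Per length, Trp53 mRNA stood at 91.5 and 73.4 RPKM in 2xSCS70, against 10.6 and 8.02 RPKM in 2xSCS2F10. In RPKM, 497 and 571 of the 23358 genes stood above Trp53 in the 2xSCS70 libraries, against 5205 and 5531 in those of 2xSCS2F10. These are 2.13% and 2.44% of the genes in 2xSCS70, against 22.3% and 23.7% in 2xSCS2F10, so that Trp53 ranked higher in both 2xSCS70 libraries. Among the 30 targets, 2 and 1 exceeded the RPKM of Trp53 in the 2xSCS70 libraries, against 12 and 15 in the 2xSCS2F10 libraries. Plk2 exceeded it in all 4, at 1.65 and 1.75 times Trp53 in 2xSCS70, against 9.99 and 17.99 times in 2xSCS2F10. Cdkn1a was at 0.288 and 0.295 times Trp53 in 2xSCS70, against 6.78 and 8.21 times in 2xSCS2F10. Perp was at 0.00585 and 0.00652 times in 2xSCS70, against 0.829 and 0.861 times in 2xSCS2F10. All 30 ratios were lower in both 2xSCS70 libraries, which follows from the rise of Trp53 by 7.55-fold when no target rose by more than the 3.25-fold of Pvt1.

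**Figure D3:**
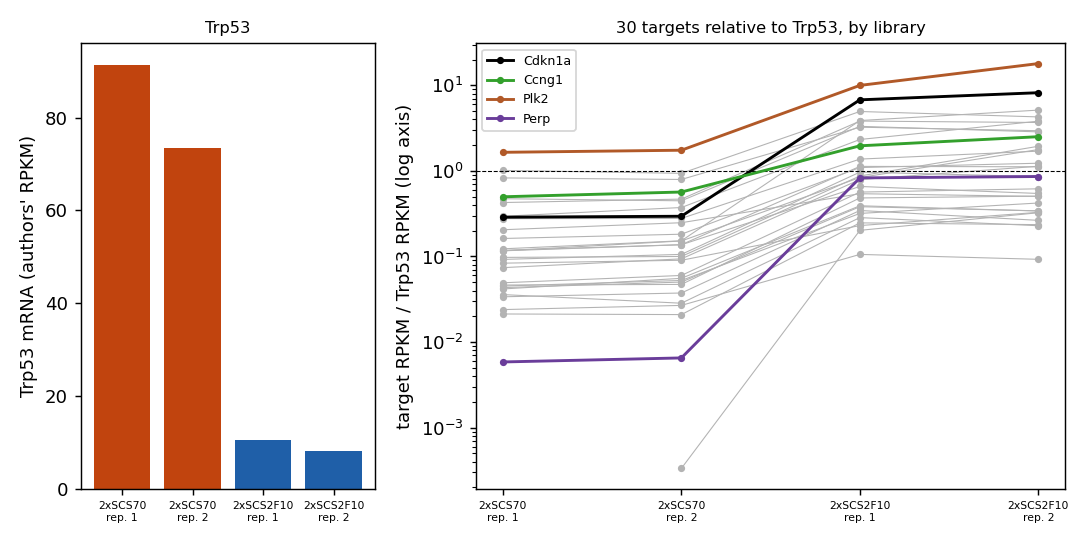
Left, Trp53 mRNA in the authors' RPKM in each library (91.5 and 73.4 in 2xSCS70, 10.6 and 8.02 in 2xSCS2F10). Right, RPKM of each of the 30 targets divided by that of Trp53 in the same library, on a log axis with a dashed line at equality and 4 targets in colour; all ratios lie lower in both 2xSCS70 libraries, and Pmaip1, at 0 in 2xSCS70 replicate 1, has no point there.

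The replicates of 2xSCS2F10 lay farther apart in these genes than those of 2xSCS70. The median absolute log2 difference between replicates over 37 members was 0.115 in 2xSCS70 and 0.312 in 2xSCS2F10. Replicates differed beyond 2-fold for 1 member in each line, Pmaip1 in 2xSCS70, with its 0 and 2 fragments, and Btg2 in 2xSCS2F10.

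The chromosomal neighbours of Trp53 were examined after its values were seen. Of the 20 nearest tested genes, 10 on each side between 69326258 and 69696098 of chromosome 11, 14 were higher in 2xSCS70 at an edgeR adjusted p under 0.05 and 6 did not pass. Their median log2 difference was 1.42. Of the higher genes, Kcnab3, A030009H04Rik, Dnahc2, Efnb3, Atp1b2 and Sat2 stood at only 0 to 0.514 CPM in 2xSCS2F10. They were at or near the limit of detection there, so the sizes of their differences are uncertain. Over the 1184 tested genes of chromosome 11, 290 (24.5%) were higher and the median was 0.20. Wrap53, which adjoins Trp53 head to head and shares no exon base with it in the annotation, stood at 15.1 and 13.1 CPM in 2xSCS70, against 2.77 and 2.36 CPM in 2xSCS2F10 (log2 difference 2.46, edgeR adjusted p = 0.00195). Fxr2, an RNA-binding protein gene on the other side, stood at 136 and 115 CPM in 2xSCS70, against 42.2 and 43.7 CPM in 2xSCS2F10 (1.55, edgeR adjusted p = 0.00213). Kdm6b, a histone demethylase gene, stood at 60.2 and 49.2 CPM in 2xSCS70, against 20.03 and 24.6 CPM in 2xSCS2F10 (1.29, edgeR adjusted p = 0.00643). Beyond Cd68 the run of higher genes ended with Eif4a1 and Senp3, whose log2 differences were 0.03 and −0.02 (edgeR adjusted p of 0.886 and 0.888). For the neighbours of the other 36 tested members, counted in the same way, 0 to 14 of 20 were higher, with a median of 4. Those of Phlda3 reached 14 as well, with a median log2 difference of 1.16, while those of Cdkn1a had 2 higher and 4 lower, those of Perp 1 and 8, and those of Pvt1 1 and 7.

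**Figure D4:**
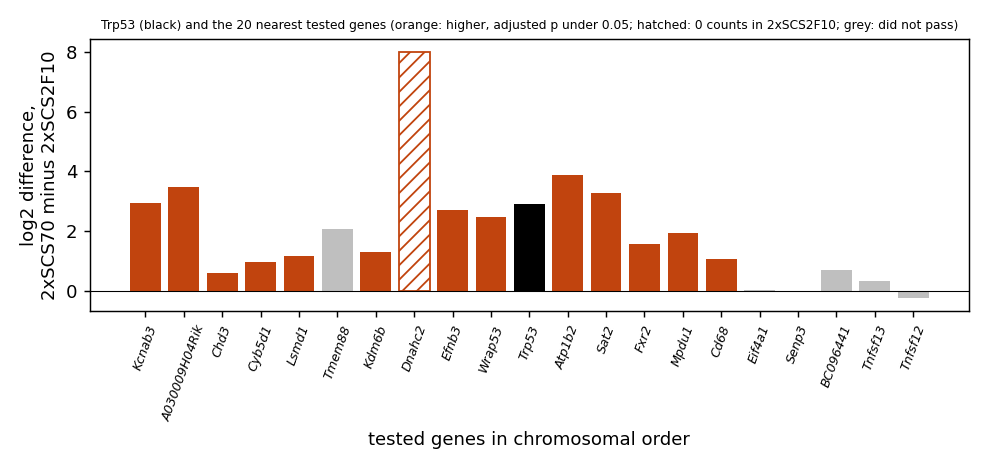
Log2 difference, 2xSCS70 minus 2xSCS2F10, of Trp53 (black) and of the 20 nearest tested genes in chromosomal order, with genes higher at an edgeR adjusted p under 0.05 in orange and the others in grey. Of the 20 neighbours 14 are higher; the hatched bar of Dnahc2, with 0 counts in 2xSCS2F10, depends on the constant added in the fit and is no measure of size.

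Further lists of pathway genes, also chosen with earlier results of these data known, give the context of the members. Of 30 further targets, 28 were tested, 2 were higher and 10 were lower in 2xSCS70, with a median log2 difference of −0.39. The 42.9% called are close to the 40.6% of all tested genes. Of all tested genes 18.8% were higher and 21.8% were lower. Without scaling factors 3 further targets were higher and 8 were lower, with a median of −0.07, where 27.3% and 14.2% of all genes were. On log2(RPKM + 1) the median of this list was −0.07 and on log2(RPKM + 0.1) it was −0.08. Cd82, a tetraspanin that restrains metastasis, stood at 31.1 and 29.2 CPM in 2xSCS70, against 117 and 124 CPM in 2xSCS2F10, and was lower (log2 SE 0.12, edgeR adjusted p = 0.000824). Ninj1, which ruptures the plasma membrane in lytic death, stood at 18.7 and 14.6 CPM in 2xSCS70, against 85.5 and 92.1 CPM in 2xSCS2F10, and was 5.33-fold lower (edgeR adjusted p = 0.00122). Both fell below every library of the other line. Ptp4a3, a phosphatase that favours proliferation, stood at 10.6 and 9.33 CPM in 2xSCS70, against 0.668 and 0.997 CPM in 2xSCS2F10, and was 11.9-fold higher (edgeR adjusted p = 0.00171). Cgref1, a calcium-binding growth regulator, stood at 0.109 and 0.123 CPM in 2xSCS70, which is 6 fragments in all, against 2.00 and 2.47 CPM in 2xSCS2F10, and was lower (edgeR adjusted p = 0.00233). Its call was lost without 2xSCS70 replicate 1 or 2 (0.0611 and 0.0569). The list had 3 and 4 called genes without 2xSCS70 replicate 1 and 2, and 22 and 19 without 2xSCS2F10 replicate 1 and 2, in runs that called 5.12%, 5.34%, 64.4% and 60.5% of all genes in that order.

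Of 26 further regulators, 3 were higher and 5 were lower (30.8% called, against 40.6% of all genes), with a median of −0.12. This split depended on the scaling, with 5 higher and 2 lower under upper quartile scaling, where 21.6% and 19.4% of all genes were. Without scaling factors it was 8 higher and 0 lower, at a median of 0.17, where 27.3% and 14.2% of all genes were. On log2(RPKM + 1) and on log2(RPKM + 0.1) the split was 2 higher and 0 lower. There 22.2% and 23.3% of all genes were higher, and 12.6% and 13.5% were lower. Cdkn2a, whose product Arf holds Mdm2 away from p53, stood at 244 and 219 CPM in 2xSCS70, against 101 and 101 CPM in 2xSCS2F10, and was 2.30-fold higher (edgeR adjusted p = 0.00275). The row does not separate Arf from p16, the other product of that gene. Sirt1, a deacetylase of p53, stood at 21.4 and 25.7 CPM in 2xSCS70, against 10.5 and 10.5 CPM in 2xSCS2F10 (2.24-fold higher, edgeR adjusted p = 0.00652). The 2 differences were clear of the replicate spread. Trp53bp2, which directs p53 to cell death genes, stood at 67.2 and 67.5 CPM in 2xSCS70, against 104 and 99.7 CPM in 2xSCS2F10 (1.51-fold lower, edgeR adjusted p = 0.0138). Kat2b, an acetyltransferase of p53, stood at 75.4 and 75.01 CPM in 2xSCS70, against 106 and 149 CPM in 2xSCS2F10 (1.70-fold lower, edgeR adjusted p = 0.031). Usp7, which removes ubiquitin from p53 and Mdm2, did not pass (0.29, edgeR adjusted p = 0.0884). It passed without 2xSCS2F10 replicate 1 or 2, at 0.0253 and 0.0166. Without 2xSCS70 replicate 1 or without its replicate 2 every call of this list was lost, with edgeR adjusted p of 0.0673 and 0.0545 for Cdkn2a. Without 2xSCS2F10 replicate 1 and 2, 16 and 18 genes of the list passed, where 64.4% and 60.5% of all genes did.

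The third list held 20 cell cycle genes that the DREAM complex represses when p53 and Cdkn1a arrest the cycle. Only Mybl2, a transcription factor of that programme, passed the test. It stood at 86.0 and 74.9 CPM in 2xSCS70, against 39.1 and 14.7 CPM in 2xSCS2F10, and was 2.99-fold higher (edgeR adjusted p = 0.0483). All 20 had a positive difference, with a median of 0.91, but its size rested largely on 1 library. For 16 of them both 2xSCS70 libraries lay above both 2xSCS2F10 libraries, against 39.9% of all tested genes. Without 2xSCS2F10 replicate 2, 17 differences of the list were positive and 3 were negative. The list summed to 2898 and 2839 CPM in 2xSCS70, against 2288 and 569 CPM in 2xSCS2F10. Between the replicates of 2xSCS2F10 the median log2 difference of the list, replicate 2 minus replicate 1, was −2.08, while in 2xSCS70 it was −0.05. Without 2xSCS2F10 replicate 1 all 20 passed as higher, with a median of 2.37, where 32% of all genes passed as higher. Without its replicate 2, 9 passed as higher and 1 as lower, with a median of 0.18, where 29.5% of all genes passed as higher and 31% as lower, and without either library of 2xSCS70 the call of Mybl2 was lost.

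In 2xSCS2F10, where this list differed so much between replicates, Cdkn1a stood at 188 CPM in replicate 1 and 207 CPM in replicate 2. The levels of Trp53 in the same 2 libraries were 25.6 and 23.2 CPM.

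**Figure D5:**
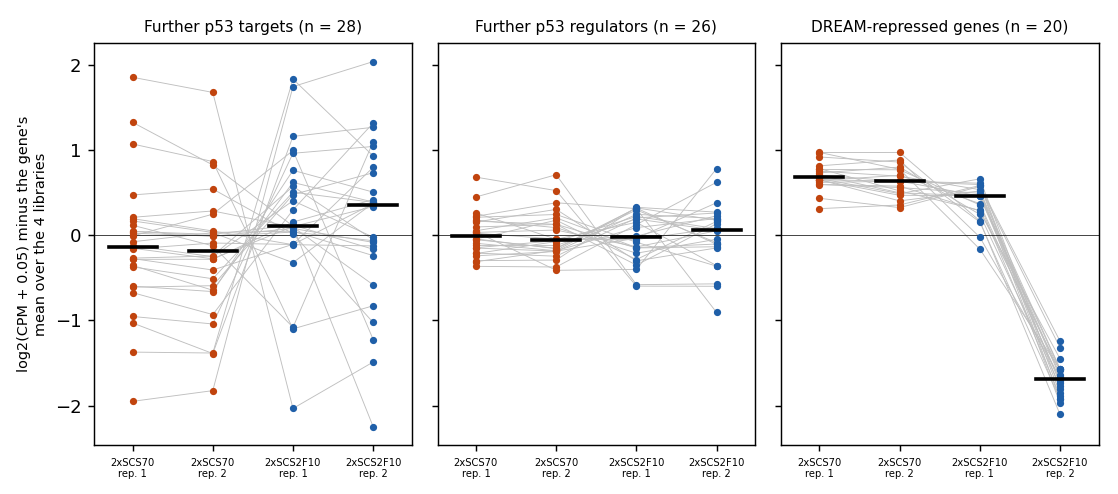
Level of each tested gene of 3 further lists in the 4 libraries, as log2(CPM + 0.05) minus the mean of that gene over the libraries, with lines joining the values of a gene and black bars at the median of the list. The 20 genes repressed by DREAM are low in 2xSCS2F10 replicate 2, where they sum to 569 CPM, and lie closer together in the other 3 libraries.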

How the data were processed

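For each of 2 clonal mouse lines, 2 RNA sequencing libraries were used. Per the labels' protocols, RNA extraction used Qiagen miRNeasy and library preparation an Illumina TruSeq mRNA kit. That kit does not mark strand. TopHat2 2.0.6, Bowtie and HTSeq and the build mm10 are named, per the submitters' processing notes, while the annotation used for counting was not given in the sources used here. For each library the authors deposited raw counts and RPKM values, which divide counts by gene length and by the number of reads, per the file headers. All counts were even, so 1 fragment was taken as 2 counts. Libraries held 24485632 and 22368504 fragments in genes for 2xSCS70 and 20159986 and 22549451 for 2xSCS2F10. Floors and intervals cover only counting error. In the tables, 25 gene names turned into dates were restored.

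The labels gave the line of each library. Counts as deposited were tested with edgeR 4.0.16 (R 4.3.3) by the quasi-likelihood test, with TMM scaling, filterByExpr and Benjamini-Hochberg adjustment over 14496 genes at a threshold of 0.05. A prior count of 2 was used only for the log2 levels behind the replicate spread over all genes and the correlation of same-numbered libraries. The SE is the absolute log2 difference divided by the square root of F. The test was also run on simulated counts, with the same spread set for all genes and both lines. As the spread of these lines was unequal, that run cannot show how the test behaves here. Differences are 2xSCS70 minus 2xSCS2F10. Every member is named. Of each further list, up to 4 called genes with the smallest adjusted p were named, with Cdkn2a and Usp7. The members and lists were chosen with earlier results of these data known. Coordinates are 1-based on mm10 and promoters are from RefSeq, build GRCm38.p6. As alternatives, a block for the replicate number, RLE, upper quartile and no scaling, no filter, a filter at 5 CPM, fragments in place of counts, the omission of each library, limma 3.58.1 (voom, log2(RPKM + 1) and log2(RPKM + 0.1)), DESeq2 1.42.0 and a test against a 1.5-fold change were run. Where a line was left with 1 library, its spread was assumed to equal that of the other line. Python 3.11.15 with pandas 2.3.3, scipy 1.17.1 and matplotlib 3.10.9 was used for tables and plots. The large T antigen transgene was not analysed here.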

Additional observations from a re-analysis of the deposited data

How the results depend on the processing

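Trp53 and Pvt1 (higher) and Cdkn1a, Gadd45a, Perp and Pmaip1 (lower) kept direction and call in every alternative that gave them a value, with an adjusted p of at most 0.049. The number of called members was 15 with the replicate block, 16 without a filter, 20 in DESeq2 and 9 (4 higher and 5 lower) against a 1.5-fold change, where the targets had 7 and all genes 3094. Leaving out 1 library gave 764 to 9673 called genes, 6 to 27 members, 5 to 22 targets, 3 to 22 further targets, 0 to 18 further regulators and 0 to 20 DREAM genes. It moved the median of the targets between −0.19 and −0.11, Chek2 between −0.36 and 0.17, Plk2 between −0.43 and 0.28, Bbc3 between −0.35 and 0.16, Ei24 between −0.55 and 0.030, Trp53inp1 between −0.18 and 0.16, Fas between −0.76 and 0.19, Eda2r between −0.44 and 0.079, Polk between −0.14 and 0.13, Sesn1 between −0.20 and 0.10 and Epha2 between −0.0059 and 0.34. The cause of these changes was not tested.

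The labels do not say that the replicate numbers mark a shared batch, so the numbers were not taken as pairs. The libraries of replicate 2 were deposited later than those of replicate 1. Same-numbered libraries of the lines deviated from their group means with a correlation of 0.0539. With the replicate block, 5222 genes, 4 further regulators and 4 DREAM genes were called, 15 members (9 higher and 6 lower) passed, and Polk stood at 0.0028. The calls of Aen, Rrm2b, Xpc and Ddb2 were lost under it.

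Scaling set the direction of small differences. Without scaling factors the median of all genes was 0.29 higher, the called genes were higher in 65.9% (46.3% with TMM), and the called members in 68.8% (57.9% with TMM). The median of the targets was then 0.17, Chek2 0.17, Plk2 0.21, Bak1 0.13, Bbc3 0.20, Ei24 0.032, Trp53inp1 0.27, Tnfrsf10b 0.057, Eda2r 0.080, Polk 0.30 and Sesn1 0.24. Relative to the median of all genes, Trp53 stood at 2.89 and Cdkn1a at −1.78 even so. With upper quartile scaling the median of the targets was −0.041, Bbc3 0.0072, Trp53inp1 0.078, Polk 0.087 and Sesn1 0.043. On log2(RPKM + 0.1) the median was 0.12, with 2 further regulators and 2 DREAM genes called, and Chek2 stood at 0.15, Plk2 0.17, Bak1 0.085, Bbc3 0.15, Trp53inp1 0.23, Tnfrsf10b 0.012, Eda2r 0.065, Polk 0.23 and Sesn1 0.19. On log2(RPKM + 1) the median was 0.10, the calls 2 and 2, and the values were 0.13 for Chek2, 0.17 for Plk2, 0.083 for Bak1, 0.11 for Bbc3, 0.18 for Trp53inp1, 0.010 for Tnfrsf10b, 0.041 for Eda2r, 0.19 for Polk and 0.15 for Sesn1. Summed targets over Trp53 were 7.29 and 7.70 in 2xSCS70, against 52.96 and 66.8 in 2xSCS2F10, in RPKM.

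A filter at 5 CPM gave 0 DREAM genes, a median of the targets of −0.094, Trp53inp1 at 0.027 and Polk at 0.034. Without a filter, 5 further regulators and 0 DREAM genes passed and Polk stood at 0.0023, as it did at 0.0028 in limma-voom. DESeq2 called 2 DREAM genes, and the 1.5-fold test 2 further regulators and 0 DREAM genes. Among the members, Xpc lost its call in 10 alternatives of 16, Zmat3 in 9, Rrm2b in 7 and Aen in 6. With 2 libraries per line, small differences were not resolved at this depth of replication.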
